A study of Mus musculus with 18 samples.

Results

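The Notch receptors Notch1, Notch2 and Notch3, their ligand Jag1 and the target genes Hes1, Hey1, Hey2, Heyl and Nrarp were followed through 3 sorted subsets of mouse bone and marrow cells. They were chosen by name, as 9 of the 54446 gene rows in the deposited counts, and all 9 passed the filter on low counts that left 15516 genes. The counts come from 18 RNA-seq libraries. The mice were 21 days old, and the labels give the cells as of osterix origin, osterix being a transcription factor of the osteoblast lineage. Wild-type controls were set against animals that lack Pth1r conditionally, Pth1r being what parathyroid hormone and its related protein bind. Each genotype gave 3 sorted subsets with 3 libraries each. The marrow subset was bone marrow stromal cells without GFP and positive for Tm, as the labels put it. Bone cells made up both remaining subsets, GFP-positive bone and GFP-negative bone, the latter also Tm-positive. All groups share the osterix origin, and the labels give neither the Cre driver, the floxed allele, the sex of the mice nor what GFP and Tm report, and do not say whether the libraries of a group are separate animals. The p-values therefore measure the spread between these samples, which may be technical.

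Notch receptors are single-pass membrane proteins that bind ligands such as Jag1 on a neighbouring cell. Binding leads to cleavage by ADAM proteases and gamma-secretase, and the freed intracellular domain enters the nucleus, joins the DNA-binding protein RBPJ and Mastermind coactivators, and turns on target genes. Hes1, Hey1, Hey2 and Heyl encode basic helix-loop-helix repressors, and Nrarp encodes an ankyrin repeat protein that limits the signal. In the skeleton the pathway is known for holding back osteoblast differentiation, and parathyroid hormone signalling in osteoblasts is known to raise Jag1. In vessel walls Notch3 acts in mural cells, the pericytes and smooth muscle cells around the endothelium.

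The mouse annotation on build mm10 places Notch1 at chr2:26457903-26516663 on the minus strand, Notch2 at chr3:98013527-98150361 on the plus strand, Notch3 at chr17:32120820-32166880 on the minus strand and Jag1 at chr2:137081456-137116644 on the minus strand. Of the targets, Hes1 lies at chr16:30064384-30067796 and Heyl at chr4:123233556-123249875, both on the plus strand, Hey1 at chr3:8663359-8667256 and Hey2 at chr10:30832359-30842801, both on the minus strand, and Nrarp at chr2:25180758-25183339 on the plus strand. Each count is a sum over the exons of the gene. Genes on the opposite strand overlap Notch1 (0610009E02Rik and Gm13568), Notch3 (Gm17276) and Nrarp (Gm38287), and Gm42819 and Gm42820 overlap Notch2 on its own strand. The sources used here do not give the strand setting, so reads of the opposite-strand pairs cannot be told apart.

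RefSeq promoter windows (GRCm38.p6, 250 bases before to 50 after the annotated start) were found for 6 of the 9 genes. They are shown for Notch3, the receptor with the highest level in marrow per kilobase, and for Hey2 and Nrarp, the targets that were lower in knockout marrow. Each is printed 5′ to 3′ on the gene's own strand, with the letters CGTGGGAA (a longer form of the RBPJ motif, or TTCCCACG on the other strand) and CACGTG (an E-box, the same on both strands) in capitals. The 50 bases after the start were searched but are left out of the print, except for the first 3 in Hey2, which complete a match. The printed stretches are chr17:32166891-32167140 for Notch3, chr10:30842781-30843033 for Hey2 and chr2:25180508-25180757 for Nrarp.
Notch3: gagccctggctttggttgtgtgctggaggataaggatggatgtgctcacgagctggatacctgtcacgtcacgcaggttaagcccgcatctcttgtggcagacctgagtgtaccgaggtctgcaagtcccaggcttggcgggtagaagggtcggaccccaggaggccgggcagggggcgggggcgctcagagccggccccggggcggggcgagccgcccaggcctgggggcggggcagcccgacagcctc
Hey2: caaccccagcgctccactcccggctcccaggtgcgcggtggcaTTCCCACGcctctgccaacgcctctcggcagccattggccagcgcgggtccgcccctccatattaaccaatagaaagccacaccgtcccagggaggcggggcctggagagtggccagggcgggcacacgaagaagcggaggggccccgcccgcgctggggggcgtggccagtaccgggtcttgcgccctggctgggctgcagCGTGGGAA
Nrarp: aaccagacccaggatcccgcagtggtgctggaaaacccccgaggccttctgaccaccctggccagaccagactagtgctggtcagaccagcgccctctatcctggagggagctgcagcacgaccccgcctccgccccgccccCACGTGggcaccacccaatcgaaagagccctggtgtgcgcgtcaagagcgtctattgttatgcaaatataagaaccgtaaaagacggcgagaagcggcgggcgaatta

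Hey2 held CGTGGGAA in 2 places, with first bases at -207 on the reverse strand and at -5 across the start, counted from the start of transcription. This motif was in 0.734% of the 32851 mouse windows (241 windows). The shorter RBPJ core TGGGAA, which is part of it, was in 25.6% of all windows, and of the 6 genes only Hey2 held it. Nrarp held 1 E-box, first base at -108, and CACGTG was in 7.15% of all windows. The windows of Notch1, Notch2, Notch3 and Jag1 held none of the 3 motifs on either strand. A match is a description of the letters, not a bound site.

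Total counts ran from 16443595 to 27160257 per library, and 18486 to 20237 genes had a count. CPM stands for counts per 1e+06 counts after TMM scaling. A gene at 0 counts may have been present at up to 3 counts, which were worth 0.0966 to 0.216 CPM, a limit for counting error only. Pth1r was lower in every knockout library of a subset than in its controls, in marrow at 372, 337 and 318 CPM against 541, 580 and 552 CPM. Its log2 fold changes were -0.70 ± 0.13 (SE) in marrow, -0.52 ± 0.13 in GFP-positive bone and -0.56 ± 0.13 in GFP-negative bone (edgeR adjusted p 2.0e-04, 0.00226 and 0.00144). With the length correction described below the call was kept in marrow (edgeR adjusted p = 0.00864) and lost in both bone subsets (0.157 and 0.125). The labels do not say which exons are removed, so counts over the whole gene can include RNA from outside the deleted part. The marrow label was checked against 6 genes of marrow reticular stroma such as Lepr and Cxcl12, which summed to 22690 to 31485 CPM in control marrow and 318 to 361 CPM in control GFP-positive bone. The GFP-positive bone cells carried cartilage genes, with 6 chondrocyte markers summing to 103382 to 126822 CPM in controls and 292855 to 324585 CPM in knockouts. Library 3 of control marrow stood apart in 10 mural and smooth muscle markers, which summed to 2744 CPM against 884 and 1213 CPM in the other control marrow libraries. The 10 blood markers reached 268, 228 and 282 CPM in library 2 of control GFP-negative bone, knockout marrow and knockout GFP-positive bone, and were at most 108 CPM elsewhere.

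Transcript length moved with genotype. Across the 15516 genes, which are not independent replicates, the knockout log2 fold change rose with the length of the longest transcript, with Spearman correlations of 0.406 in marrow, 0.437 in GFP-positive bone and 0.444 in GFP-negative bone. A slope on log2 length was fitted to each library's log2 level minus the mean of its subset over both genotypes. It was positive in all 9 knockout libraries (0.143 to 0.218) and negative in all 9 controls (-0.233 to -0.131). These signs are relative to the other libraries of the subset, not a length bias of a library by itself. The receptors and Jag1 have long transcripts, 9488 bases for Notch1, 10500 for Notch2, 8016 for Notch3 and 5612 for Jag1, while Hes1 has 1468 bases, Hey1 2423, Hey2 2550, Nrarp 2582 and Heyl 4537. The trend at the length of each receptor was 0.78 to 1.16 log2 units over the 3 subsets. Called knockout fold changes of the 9 genes are therefore given with a second value, corrected for length by removing a smooth trend from each library. The length trend and the genotype cannot be told apart, since the slopes of the genotypes do not overlap.

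The 3 receptors and Jag1 were higher in the knockout in all 3 subsets. Of the 5 targets, Hes1 rose and Hey2 and Nrarp fell in marrow, Hes1 fell in GFP-positive bone and Hey1 fell in GFP-negative bone. Calls below are those with a Benjamini-Hochberg adjusted p under 0.05 over 15516 genes in edgeR's quasi-likelihood test. In marrow 5 of the 9 genes were called higher, against 23.1% of all genes, and 2 lower, against 24.8%. In GFP-positive bone 4 were higher, against 26%, and 1 lower, against 25.3%. In GFP-negative bone 4 were higher, against 21.5%, and 1 lower, against 25.7%. With the length correction the counts were 5 higher and 3 lower in marrow (19.2% and 20.1% of all genes), 4 higher in GFP-positive bone (20.9%), where Hes1 was no longer called, and 5 higher and 1 lower in GFP-negative bone (17.6% and 19.9%). The 1 lower in GFP-negative bone was then Heyl, as Hey1 was no longer called. Scaling by library totals in place of TMM moved the share of higher among all called genes from 48.2% to 59.6% in marrow, from 50.7% to 30.9% in GFP-positive bone and from 45.6% to 30.8% in GFP-negative bone. For the 9 genes it left the counts as they were in the first pair of subsets and gave 4 higher and 2 lower in GFP-negative bone. The median log2 fold change of the 9 genes was 0.57 in marrow, 2.26 in GFP-positive bone and 0.02 in GFP-negative bone, and that of all genes was -0.04, 0.03 and -0.07. With the length correction the medians of the 9 were 0.92, 1.5 and 0.51. The 2.26 is the fitted value of Nrarp, which rests on 6 counts, and without Nrarp the median of the other 8 genes was 1.17, 1.69 and 1.0, and 0.95, 1.26 and 0.80 with the correction.

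**Figure D1:**
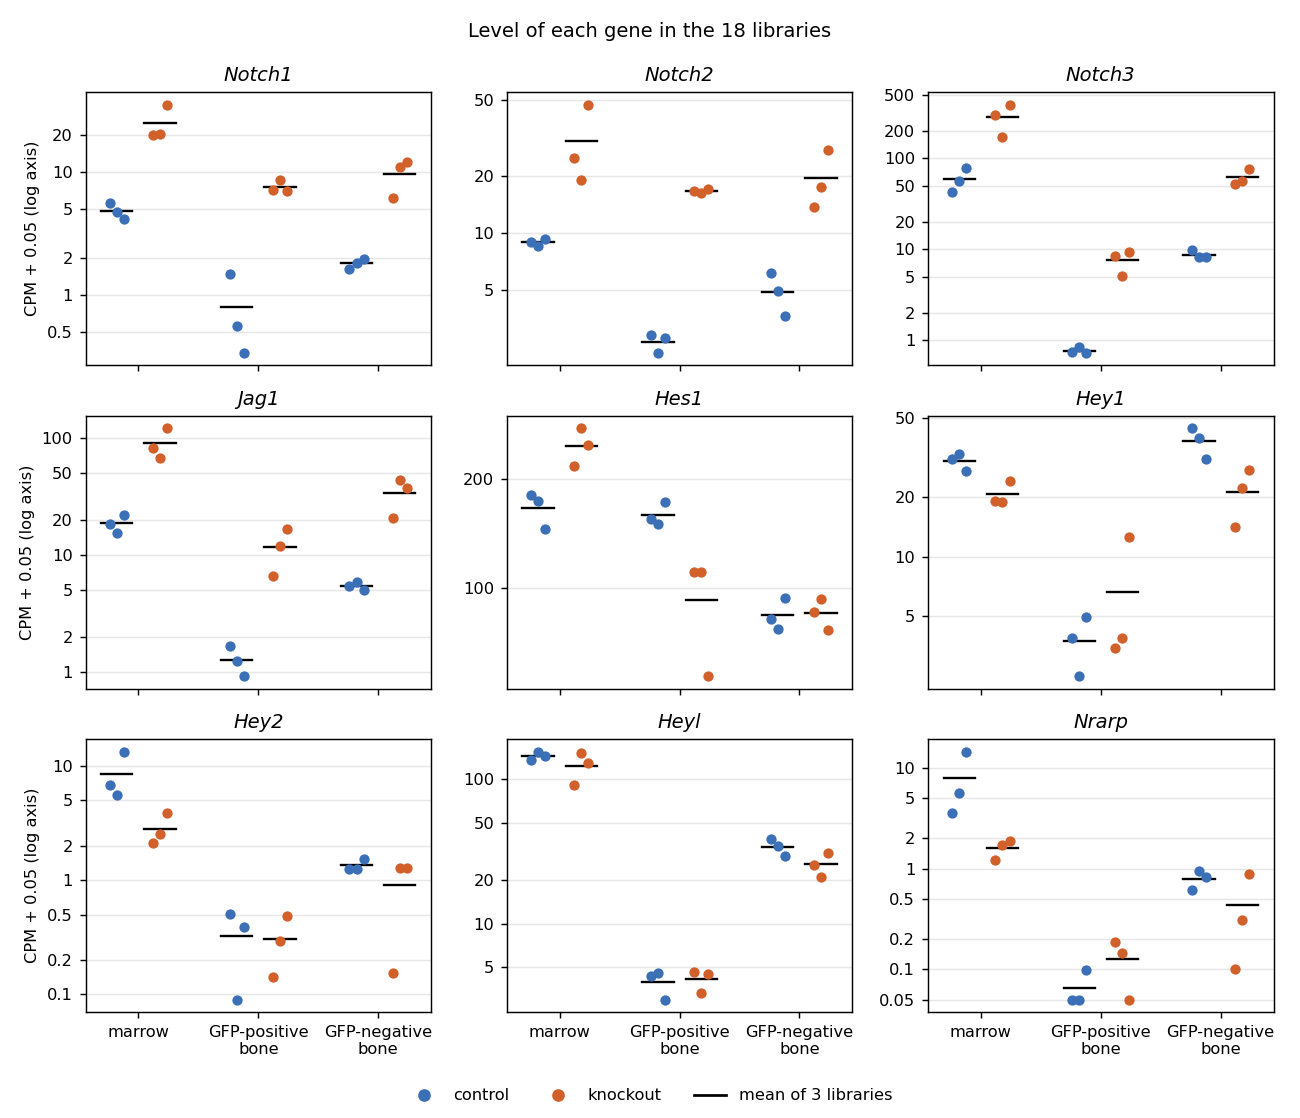
Level of the 9 genes in each of the 18 libraries, in CPM plus 0.05 on log axes that differ between panels; points are libraries, blue for control and orange for knockout, and black bars are means of 3 libraries. Notch1, Notch2, Notch3 and Jag1 sit higher in all knockout libraries of a subset than in its controls, and Hey2 and Nrarp sit lower in knockout marrow.

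Notch1, the receptor best known from T cell development, rose in each subset from a low control level. In marrow it stood at 5.50, 4.66 and 4.09 CPM in the controls and 19.8, 20.4 and 35.2 CPM in the knockouts. In GFP-positive bone the controls had 1.44, 0.513 and 0.289 CPM, the knockouts 7.08, 8.48 and 6.90 CPM. In GFP-negative bone the controls had 1.57, 1.78 and 1.92 CPM and the knockouts 6.10, 10.9 and 12 CPM. Every knockout library was above every control library of its subset, and knockout marrow library 3 was the highest of all. The log2 fold change was 2.38 ± 0.27 in marrow (edgeR adjusted p = 1.2e-06), 3.26 ± 0.42 in GFP-positive bone (3.0e-06) and 2.44 ± 0.38 in GFP-negative bone (3.0e-05). After the length correction it was 1.55, 2.15 and 1.56, with edgeR adjusted p of 1.5e-04, 4.4e-04 and 0.00297.

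Notch2, whose gain of function causes a human disorder with bone loss, rose in each subset and had the smallest fold change of the 3 receptors in each. In marrow it stood at 8.94, 8.51 and 9.19 CPM in the controls and 24.8, 19.0 and 47.3 CPM in the knockouts. Control GFP-positive cells had 2.85, 2.29 and 2.74 CPM and knockout ones 16.5, 16.2 and 17.0 CPM. Control GFP-negative cells had 6.08, 4.93 and 3.59 CPM and knockout ones 13.7, 17.4 and 27.3 CPM. The groups did not overlap in any subset, and knockout marrow library 3 was the highest of all. The log2 fold change was 1.76 ± 0.28 in marrow (edgeR adjusted p = 5.0e-05), 2.66 ± 0.34 in GFP-positive bone (3.9e-06) and 1.99 ± 0.33 in GFP-negative bone (6.8e-05). With the length correction, which takes most from this longest transcript, it was 0.92, 1.5 and 1.08, with edgeR adjusted p of 0.0106, 0.00139 and 0.0117.

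Notch3, the mural cell receptor, rose in each subset and had the widest spread of levels between subsets among the receptors. In marrow it stood at 42.3, 56.7 and 78.7 CPM in the controls and 299, 173 and 389 CPM in the knockouts. GFP-positive bone gave control values of 0.684, 0.789 and 0.674 CPM and knockout values of 8.31, 4.99 and 9.28 CPM. GFP-negative bone gave control values of 9.72, 8.08 and 8.21 CPM and knockout values of 52.3, 56.7 and 75.9 CPM. The lowest knockout marrow library was 2 and the highest control was 3, and the groups still did not overlap. The log2 fold change was 2.28 ± 0.27 in marrow (edgeR adjusted p = 4.6e-06), 3.36 ± 0.51 in GFP-positive bone (4.2e-05) and 2.83 ± 0.31 in GFP-negative bone (2.2e-06). After the length correction it was 1.51, 2.34 and 2.0, with edgeR adjusted p of 2.1e-04, 0.00154 and 7.6e-05.

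Jag1, the ligand, rose with the receptors. In marrow it stood at 18.3, 15.4 and 22.1 CPM in the controls and 82.7, 67.5 and 122 CPM in the knockouts. Among GFP-positive cells the controls had 1.63, 1.18 and 0.866 CPM and the knockouts 6.62, 11.9 and 16.5 CPM. Among GFP-negative cells the controls had 5.33, 5.87 and 4.97 CPM and the knockouts 20.7, 43.7 and 37.6 CPM. All knockout libraries were above all controls of their subset. The log2 fold change was 2.29 ± 0.29 in marrow (edgeR adjusted p = 6.0e-06), 3.18 ± 0.44 in GFP-positive bone (1.4e-05) and 2.65 ± 0.34 in GFP-negative bone (7.7e-06). Its shorter transcript made the correction smaller, and the corrected values of 1.78, 2.52 and 2.09 (edgeR adjusted p 6.9e-05, 1.6e-04 and 9.4e-05) were larger than those of the 3 receptors, a difference between genes that was not tested.

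Hes1, a widely expressed target, rose in marrow and fell in GFP-positive bone. In marrow the controls had 181, 174 and 146 CPM and the knockouts 218, 277 and 249 CPM, a log2 fold change of 0.57 ± 0.18 (edgeR adjusted p = 0.013). In GFP-positive bone the controls had 155, 151 and 173 CPM and the knockouts 111, 111 and 57 CPM, a log2 fold change of -0.77 ± 0.18 (edgeR adjusted p = 0.00153). Neither pair of groups overlapped, and knockout GFP-positive library 3 was the lowest of the 18. In GFP-negative bone the controls had 82.0, 77.1 and 94.1 CPM and the knockouts 86.1, 93.2 and 76.7 CPM, overlapping groups with a log2 fold change of 0.02 ± 0.18 (edgeR adjusted p = 0.952). The length correction raised all 3 values, to 0.97 in marrow (edgeR adjusted p = 4.0e-04), to -0.33 in GFP-positive bone (0.162, no longer called) and to 0.51 in GFP-negative bone (0.0381, called). The marrow call was lost without control library 3 (edgeR adjusted p = 0.0563) and without knockout library 2 (0.0547), which left 4 of the 9 genes called higher there. The difference between the knockout effects in GFP-positive bone and marrow was -1.34 ± 0.25 (edgeR adjusted p = 0.00141), and -1.3 with the length correction (0.00226).

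Hey1, a target also induced by bone morphogenetic proteins, had lower means in knockouts of both Tm-positive subsets. In marrow the controls had 31.0, 32.7 and 27 CPM and the knockouts 18.9, 18.8 and 23.9 CPM, a log2 fold change of -0.56 ± 0.30 (edgeR adjusted p = 0.141), called when only the marrow libraries were fitted (-0.51, edgeR adjusted p = 0.0123). Control GFP-negative cells had 44.3, 39.5 and 31.0 CPM and knockout ones 14.0, 22 and 27.4 CPM, a log2 fold change of -0.87 ± 0.31 (edgeR adjusted p = 0.0303). The groups did not overlap in either subset, but the call in GFP-negative bone was lost in 4 of the 6 fits without 1 of its libraries (control 1 or 2, knockout 1 or 2; edgeR adjusted p 0.0609 to 0.134). It was also lost with the length correction (-0.57, edgeR adjusted p = 0.175), without the filter on low counts (0.154) and in DESeq2 (adjusted p = 0.0794). Control GFP-positive cells had 3.84, 2.45 and 4.91 CPM and knockout ones 3.42, 3.83 and 12.5 CPM, where library 3 alone was above the controls (log2 fold change 0.73 ± 0.43, edgeR adjusted p = 0.169). Without knockout library 1 that value was 1.07 (edgeR adjusted p = 0.0484).

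Hey2, a target of vessel and heart development, was lower in knockout marrow. The controls there had 6.70, 5.51 and 13.3 CPM and the knockouts 2.06, 2.46 and 3.80 CPM. Control library 3 was the highest and the groups did not overlap. The log2 fold change was -1.64 ± 0.34 (edgeR adjusted p = 5.6e-04), -1.42 with the length correction (0.00326) and -1.18 without control library 3 (0.00506). GFP-negative bone gave control values of 1.19, 1.21 and 1.5 CPM and knockout values of 0.103, 1.24 and 1.23 CPM, so that only knockout library 1, with 2 counts, was apart (log2 fold change -0.64 ± 0.67, edgeR adjusted p = 0.469). In GFP-positive bone the libraries of both genotypes held 1 to 12 counts, 0.039 to 0.456 CPM, and a difference was not detectable at this depth (edgeR adjusted p = 0.881).

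Heyl, the Hey gene with the highest level per kilobase in marrow, was not called in any subset without a length correction and with TMM scaling of all 18 libraries. In marrow the controls had 136, 155 and 144 CPM and the knockouts 90.6, 152 and 130 CPM, with overlapping groups (log2 fold change -0.23 ± 0.16, edgeR adjusted p = 0.267). GFP-positive bone gave control values of 4.29, 4.50 and 2.93 CPM and knockout values of 4.57, 3.30 and 4.46 CPM (0.05 ± 0.26, edgeR adjusted p = 0.898). Among GFP-negative cells the controls had 38.3, 34.7 and 29.6 CPM and the knockouts 25.5, 21.0 and 30.8 CPM (-0.41 ± 0.18, edgeR adjusted p = 0.0665). Its transcript is long for a target, and with the length correction it was called lower in marrow (-0.46, edgeR adjusted p = 0.0334) and in GFP-negative bone (-0.67, 0.00681). In GFP-negative bone it was also called with scaling by library totals (-0.67, edgeR adjusted p = 0.0025) and, with TMM, without control library 3 (edgeR adjusted p = 0.0476) and without knockout library 3 (0.0282).

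Nrarp, the feedback inhibitor, was lower in knockout marrow. The controls had 3.48, 5.51 and 14.4 CPM and the knockouts 1.16, 1.64 and 1.83 CPM. All 3 knockout libraries were below all 3 controls, and control library 3 was the highest by a wide gap. The log2 fold change was -2.32 ± 0.42 (edgeR adjusted p = 1.0e-04), -2.11 with the length correction (5.1e-04) and -1.56 without control library 3 (4.8e-04). In GFP-negative bone the controls had 0.564, 0.892 and 0.779 CPM and the knockouts 0.0517, 0.258 and 0.840 CPM, overlapping groups with 1 to 17 counts a library (log2 fold change -1.09 ± 1.01, edgeR adjusted p = 0.402). In GFP-positive bone Nrarp had 0, 0 and 1 counts in the controls and 3, 2 and 0 in the knockouts. Pooled over the libraries that is a ratio of 6.42, with an exact 95% counting interval of 0.718 to 304, and a difference was not detectable at this depth.

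**Figure D2:**
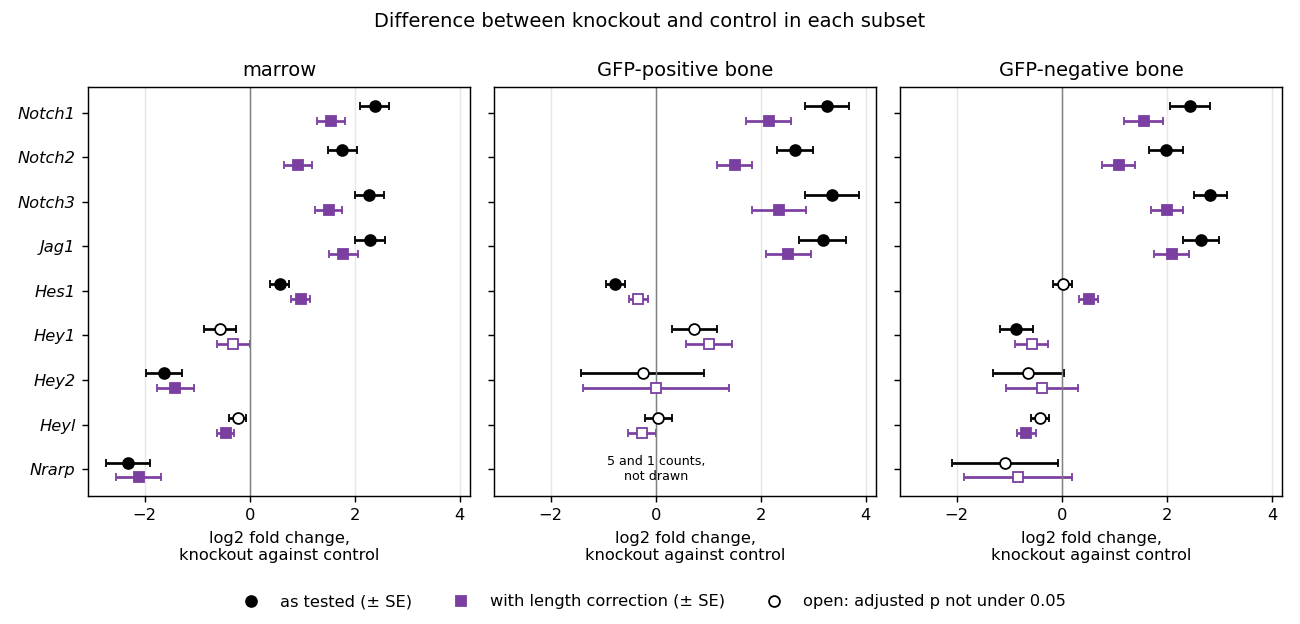
Log2 fold change of knockout against control for each gene in the 3 subsets; black circles are as tested, purple squares with the length correction, bars are the SE, and filled symbols have an adjusted p under 0.05. The 3 receptors and Jag1 lie right of 0 with and without the correction, while Hes1 lies right of 0 in marrow and left of 0 in GFP-positive bone.

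The falls of Hey2 and Nrarp in marrow stood beside a fall of mural markers. The 10 mural and smooth muscle markers summed to 884, 1213 and 2744 CPM in control marrow and to 240, 292 and 291 CPM in knockout marrow. Of these, 6 were called lower, and 9 with the length correction. Acta2, a contractile actin, fell by 3.96 on the log2 scale, and the pericyte genes Rgs5 and Mcam fell by 2.18 and 2.12. The markers not called were Cspg4 (log2 fold change 0.0577), Abcc9 (0.00148), Des (-0.34) and Myh11 (-0.997), each with overlapping groups. With the length correction Cspg4, Abcc9 and Myh11 were called lower (-0.717, -0.763 and -1.66), and Des was not (-0.204). Hey2, Nrarp and, within the controls, Notch3 and Jag1 were highest in control library 3, the library with the highest mural sum. Notch3 and Jag1 were higher in the knockout marrow libraries where the mural sum was lower, and the Heyl levels overlapped. The 9 endothelial markers summed to 5.60 to 48.1 CPM over all 18 libraries, with Kdr at 0 counts in control marrow and Cdh5 too low to test. In marrow they summed to 22.6, 29.4 and 48.1 CPM in controls and 8.17, 37.8 and 10.1 CPM in knockouts, with 2 of 8 called lower and 1 higher. The 2 were Emcn and Esam, surface proteins of endothelium named after their values were seen. They fell by 2.97 and 2.40 on the log2 scale (edgeR adjusted p 4.9e-04 and 2.5e-05) with no overlap of the groups, as Hey2 and Nrarp did. Vwf, the 1 called higher, rose by 3.26 (edgeR adjusted p = 0.00956), also with no overlap. With the length correction Vwf was not called (edgeR adjusted p = 0.0533). The median log2 fold change of the 8 was 0.41, and 0.74 with the correction. In GFP-positive bone the mural sum went the other way, from 132 to 157 CPM in controls to 562 to 860 CPM in knockouts, with Cspg4, also a gene of cartilage cells, making up most of it (523, 564 and 804 CPM in the knockouts). In GFP-negative bone the mural sum was lower in knockouts, at 269 to 392 CPM against 434 to 562 CPM in controls. There 4 of the markers were called lower and 2 higher, and 3 and 1 with the length correction. Hey2 and Nrarp were not called in that subset, and Notch3 and Jag1 were higher. Markers of marrow reticular stroma moved with the receptors and Jag1. Their sum was 37629 to 44917 CPM in knockout marrow against 22690 to 31485 CPM in controls, 660 to 880 against 318 to 361 CPM in GFP-positive bone and 3761 to 4076 against 1177 to 1617 CPM in GFP-negative bone, with 5, 5 and 6 of the 6 genes called higher. With the length correction 5 were called higher in each subset. Cxcl12 was then not called in marrow (0.08, edgeR adjusted p = 0.752). Foxc1 was then called lower in GFP-positive bone (-0.46, edgeR adjusted p = 0.00942). The 7 osteoblast markers summed to 51500 to 71665 CPM in knockout marrow and 119887 to 177665 CPM in control marrow, with 6 of the 7 called lower, and 7 with the length correction. In GFP-negative bone their sum was higher in the knockouts, at 300652 to 469955 against 229486 to 258832 CPM. There 2 of the 7, Runx2 and Col1a1, were called higher, beside 21.5% of all genes. With the length correction neither was called (edgeR adjusted p 0.352 and 0.884), while Ibsp and Dmp1 were called higher (0.031 and 0.0404). In GFP-positive bone 3 were called higher and 1 lower, and 2 and 0 with the correction. The part of these markers in the results was not tested, and in bulk samples fewer cells of a type and less RNA per cell cannot be told apart.

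**Figure D3:**
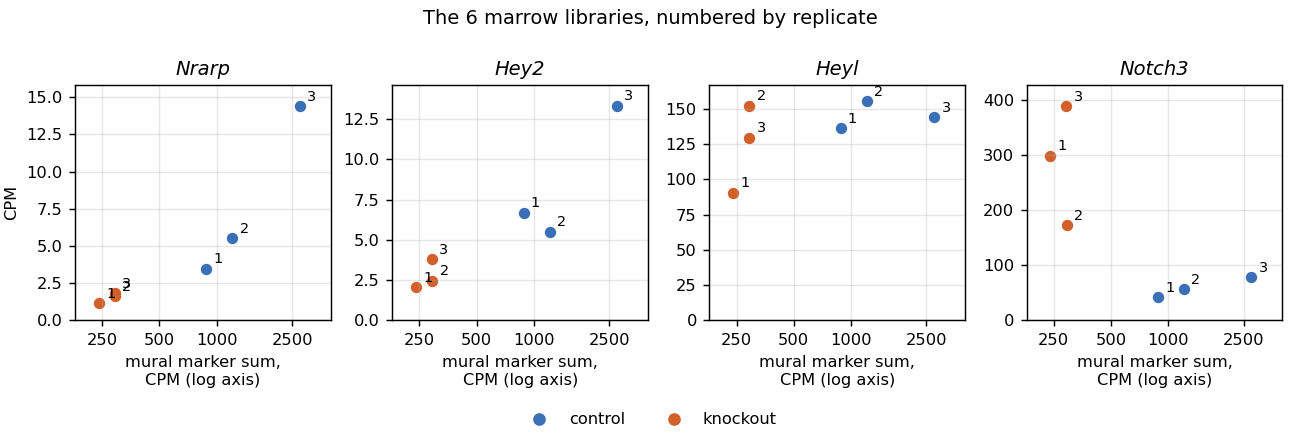
Level in CPM of Nrarp, Hey2, Heyl and Notch3 (linear axes from 0) against the summed CPM of 10 mural and smooth muscle markers (log axis) in the 6 marrow libraries; blue is control, orange is knockout and the numbers are replicates. Nrarp and Hey2 are highest in control library 3 at a mural sum of 2744 CPM, while Notch3 is highest in the knockout libraries at sums of 240 to 292 CPM.

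Whether the knockout effect differed between subsets was tested as a difference of differences. Against marrow, the effect in GFP-positive bone differed for 1 of the 9 genes, Hes1, beside 18.4% of all genes (2, Hes1 and Hey1, at an unadjusted p under 0.05). DESeq2 called 4, adding Notch3 (adjusted p = 0.0448), Hey1 (0.0403) and Nrarp (0.0155), the last on 6 counts over the libraries of both genotypes in GFP-positive bone. Against marrow, the effect in GFP-negative bone differed for 0 of the 9 in edgeR, beside 7.79% of all genes (1 of the 9, Hes1, at an unadjusted p under 0.05, and 0 in DESeq2). Between the bone subsets it differed for 0 of the 9, beside 6.08% (2, Hes1 and Hey1, at an unadjusted p under 0.05, and 2 in DESeq2). The fold changes of Notch1, Notch2, Notch3 and Jag1 were larger in GFP-positive bone than in marrow, by 0.88 ± 0.54, 0.89 ± 0.45, 1.08 ± 0.62 and 0.89 ± 0.55 on the log2 scale, but edgeR adjusted p ranged from 0.191 to 0.301. For Notch2 the difference was called without knockout marrow library 3 (1.35, edgeR adjusted p = 0.0128). The effect on Hey1 was higher in GFP-positive than in GFP-negative bone by 1.60 ± 0.53 (edgeR adjusted p = 0.0894) and was called without knockout GFP-positive library 1 (1.93, 0.0373). These 3 comparisons share libraries and are not independent. They treat same-number libraries of the subsets as unpaired. A fit with a replicate block, given below, called more of the 9 genes for GFP-positive bone against marrow and between the bone subsets.

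In the controls the mean of 8 of the 9 genes was highest in marrow, Hey1 being the exception. Compared with marrow, GFP-positive bone had 8 of the 9 genes called lower, beside 33% of all genes. GFP-negative bone had 7 lower than marrow, beside 18.2%. Between the bone subsets, GFP-positive cells had 6 lower, beside 21.8%, and 1 higher, Hes1, beside 18.2%. With library totals the share of higher among all calls went from 53.7% to 27.6% for GFP-negative bone against marrow and from 45.5% to 62.2% between the bone subsets (57.2% with the length correction), and the 9 genes gave 8 lower, 8 lower, and 5 lower and 1 higher in the 3 comparisons. The 3 comparisons use the same 9 libraries.

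Notch3 had the steepest order of the receptors, with means of 59.2 ± 18.3 CPM in marrow (SD, n = 3), 8.67 ± 0.914 CPM in GFP-negative bone and 0.715 ± 0.0638 CPM in GFP-positive bone. Its log2 fold change against marrow was -6.35 ± 0.43 in GFP-positive bone (edgeR adjusted p = 2.1e-09) and -2.77 ± 0.31 in GFP-negative bone (3.1e-06). Jag1 followed the same order, with 18.6 ± 3.34, 5.39 ± 0.455 and 1.23 ± 0.386 CPM, and all 3 steps were called. Notch1 was lower than marrow in both bone subsets, by -2.60 ± 0.44 in GFP-positive and -1.44 ± 0.40 in GFP-negative bone on the log2 scale. Its difference between the bone subsets was not called (edgeR adjusted p = 0.106), but was without control GFP-positive library 1 (0.0171), the highest of that group. Notch2 was called lower than marrow in GFP-positive bone (-1.76 ± 0.36), while its differences from GFP-negative bone, in marrow and in GFP-positive bone, had edgeR adjusted p of 0.0525 and 0.0895. Fits of only the libraries compared called both of the latter (edgeR adjusted p 0.00895 and 0.0239), and library totals the first (0.0105). DESeq2 called both (adjusted p 0.00958 and 0.0342) and the Notch1 difference (0.0202).

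Among the targets Heyl went from 145 ± 9.58 CPM in marrow to 34.2 ± 4.36 in GFP-negative and 3.91 ± 0.849 CPM in GFP-positive bone (SD, n = 3), with no overlap. Hey2 went from 8.51 ± 4.21 CPM to 1.3 ± 0.173 and 0.277 ± 0.214 CPM in the same order. Nrarp had 524 counts in marrow, 39 in GFP-negative and 1 in GFP-positive bone, summed over 3 libraries each. These 3 targets fell in the same order as Notch3 and Jag1. The marrow to GFP-positive ratio of Nrarp was 534, with an exact 95% counting interval of 95.4 to 21130, and the GFP-negative to GFP-positive ratio was 54.7 (9.25 to 2214). The bone-to-bone calls of Hey2 and Nrarp were fragile. That of Hey2 (edgeR adjusted p = 0.0327) was lost without control GFP-positive library 2 or 3 or any control GFP-negative library (0.0535 to 0.119), and that of Nrarp (0.0203) without control GFP-positive library 1 (0.0515) or control GFP-negative library 2 (0.0524).

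Hey1 and Hes1 had other orders. Hey1 was at 38.3 ± 6.74 CPM in GFP-negative bone and 30.2 ± 2.91 CPM in marrow, a difference that was not called (edgeR adjusted p = 0.393), and it was lower in GFP-positive bone (3.73 ± 1.23 CPM). Hes1 was at 167 ± 18.8 CPM in marrow and 159 ± 11.8 CPM in GFP-positive bone, a difference within their spread (log2 difference -0.07 ± 0.18, edgeR adjusted p = 0.759). It was lower in GFP-negative bone, at 84.4 ± 8.75 CPM, than in marrow (-0.99 ± 0.18, 2.9e-04) and in GFP-positive bone (edgeR adjusted p = 5.3e-04). With the length correction the calls of the 9 genes in these 3 comparisons were the same.

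The mural sum in the controls had the same order as Notch3, with 884 to 2744 CPM in marrow, 434 to 562 CPM in GFP-negative bone and 132 to 157 CPM in GFP-positive bone. Of its 10 markers 9 were called lower in GFP-positive bone than in marrow and 1 higher. The sum of the 6 marrow reticular stroma markers had this order too. It was 22690 to 31485 CPM in marrow, 1177 to 1617 CPM in GFP-negative bone and 318 to 361 CPM in GFP-positive bone. All 6 were called lower than marrow in both bone subsets. The osteoblast and chondrocyte sums had other orders. The part of these markers in the order of the Notch genes was not tested.

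Levels can be set between genes only per kilobase of transcript, here the longest annotated transcript, and the length trend of the libraries bears on this order too. Per kilobase the control marrow cells had most Hes1, at 114 ± 12.8 CPM per kb, then Heyl (32.0 ± 2.11), Hey1 (12.5 ± 1.2) and Notch3 (7.39 ± 2.29). Hey2, Jag1 and Nrarp followed at 3.34 ± 1.65, 3.31 ± 0.596 and 3.02 ± 2.24 CPM per kb and did not differ beyond their spread. Notch2 and Notch1 came last, at 0.846 ± 0.033 and 0.501 ± 0.0745 CPM per kb. In knockout marrow the order was Hes1 (169 ± 20.3 CPM per kb), Notch3 (35.8 ± 13.5), Heyl (27.4 ± 6.88), Jag1 (16.1 ± 4.97) and Hey1 (8.48 ± 1.2). Notch2 (2.89 ± 1.42) and Notch1 (2.65 ± 0.919) lay above Hey2 (1.09 ± 0.358) and Nrarp (0.598 ± 0.134 CPM per kb), where in the controls they lay below. In control GFP-positive bone every receptor was under 1 CPM per kb, with Notch2 at 0.250 ± 0.0284, Notch3 at 0.0892 ± 0.00796 and Notch1 at 0.0789 ± 0.0645 CPM per kb, while Hes1 stood at 109 ± 8.04.

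**Figure D4:**
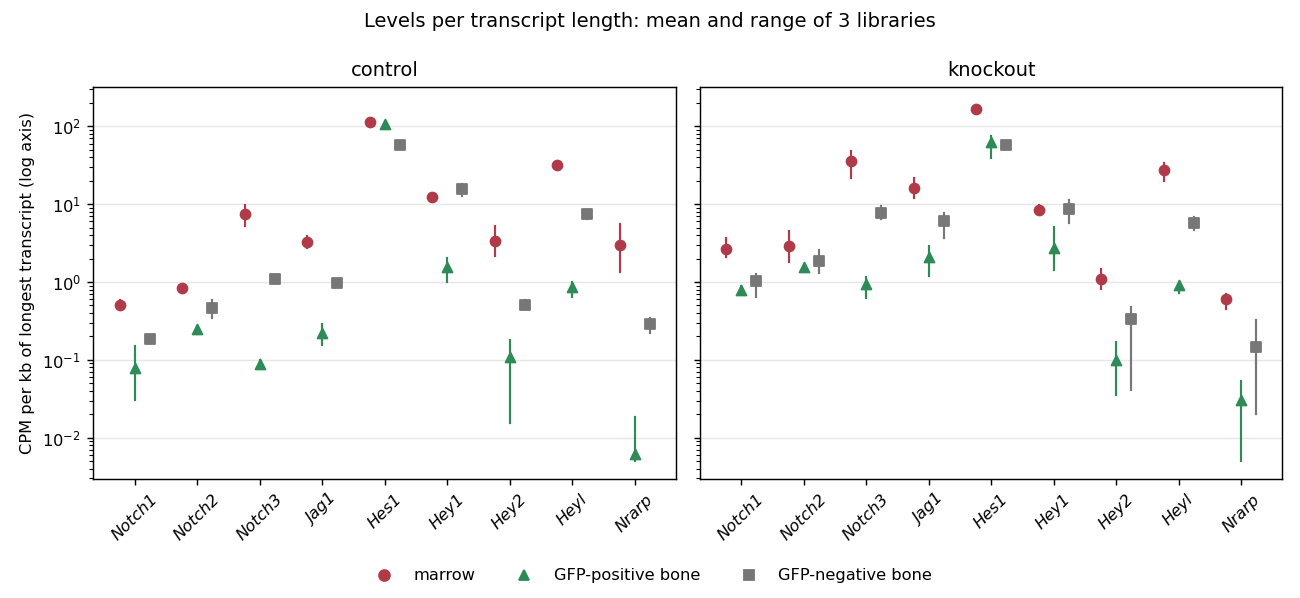
CPM per kilobase of the longest transcript (log axis) for the 9 genes in control (left) and knockout (right) cells; symbols are means of 3 libraries in each subset, lines run from the lowest to the highest library, and values under 0.005 are drawn at 0.005. In controls the marrow symbol is highest for all genes but Hey1, and Notch3 moves from 7.39 CPM per kb in control to 35.8 in knockout marrow.

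The rest of the pathway was read from 55 other genes listed by role, 51 of which passed the filter. The ligands Dll3 and Dll4 and the targets Hes5 and Hes7 did not pass it and had at most 0.72 CPM in any library. In marrow 27 of the 51 rose and 6 fell, beside 23.1% and 24.8% of all genes. In GFP-positive bone 23 rose and 5 fell, beside 26% and 25.3%, and in GFP-negative bone 24 and 5, beside 21.5% and 25.7%. The length correction reduced the rises to 18, 13 and 14, beside 19.2%, 20.9% and 17.6% of all genes, and left 8, 9 and 6 lower, so the count of rises depends on it. The median log2 fold change of the 51 genes was 0.62, 0.46 and 0.50, and with the correction 0.39, 0.20 and 0.30.

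The count of rises in the nuclear complex also depended on the length correction. Of its 8 genes 7 rose in marrow and 6 in each bone subset without it. With it 4 rose and 1 fell in marrow, 2 and 1 in GFP-positive bone, and 1 rose in GFP-negative bone, and in the bone subsets that is near the shares over all genes given above. Maml1, a Mastermind coactivator, rose in marrow from 4.63 ± 0.608 to 12.5 ± 0.721 CPM (log2 fold change 1.44 ± 0.19, edgeR adjusted p = 6.5e-06, and 0.95 with the correction). Rbpj, the DNA-binding partner of the receptors' intracellular domain, was chosen for naming after its values were seen. It had 12.5, 10.4 and 10.5 CPM in control marrow and 18.3, 34.2 and 23.6 CPM in knockout marrow. Without the length correction Rbpj was called higher in all 3 subsets (log2 fold change 1.18, 1.45 and 1.33). Its corrected values are not given here, so these calls may depend on the correction as the counts above do. Of the 9 corepressors 7 rose and 1 fell in marrow, 4 and 1 in GFP-positive bone and 6 and 1 in GFP-negative bone. With the correction 2 rose in marrow, 3 rose and 2 fell in GFP-positive bone and 2 rose in GFP-negative bone. Tle1, a Groucho corepressor, rose in marrow from 27 ± 1.29 to 47.7 ± 6.26 CPM.

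Genes that handle ligand and receptor gave mixed counts. Of the 8 genes of receptor turnover and inhibition 5 rose in marrow, 6 in GFP-positive and 5 in GFP-negative bone, and with the correction 5, 3 and 5 rose and 1, 1 and 2 fell. Of the 4 genes of ligand endocytosis 1 rose and 1 fell in marrow and 2 rose in each bone subset. Mib1, the ubiquitin ligase that lets ligands be taken up by the sending cell, was among the 4 smallest p in each subset. It rose from 7.83 ± 0.762 to 21.0 ± 1.49 CPM in marrow, from 8.55 ± 0.605 to 26.5 ± 1.01 CPM in GFP-positive bone and from 9.30 ± 0.629 to 25.8 ± 6.29 CPM in GFP-negative bone. Its log2 fold changes of 1.43, 1.64 and 1.48 were 0.60, 0.49 and 0.59 with the length correction and stayed called. Of the 10 cleavage genes 3 rose and 2 fell in marrow, 2 and 2 in GFP-positive bone and 2 and 1 in GFP-negative bone. Furin, which cuts the receptor on its way to the surface, rose in GFP-positive bone from 130 ± 12.9 to 446 ± 82.2 CPM, and Adam10, the protease of the ligand-triggered cut, rose in GFP-negative bone from 49.7 ± 4.63 to 110.2 ± 7.42 CPM. Of the 5 sugar modifiers 2 rose and 1 fell in marrow and 1 and 1 in each bone subset. Poglut1, which adds glucose to the receptor's EGF repeats, fell in both bone subsets, from 81.5 ± 3.35 to 39.2 ± 3.49 CPM in GFP-positive and from 69.3 ± 4.76 to 35.8 ± 3.25 CPM in GFP-negative bone. Dtx4, an E3 ligase of the Deltex family, rose in GFP-negative bone from 11.3 ± 3.83 to 55.9 ± 6.88 CPM, a log2 fold change of 2.30 ± 0.21 and 1.84 with the correction.

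**Figure D5:**
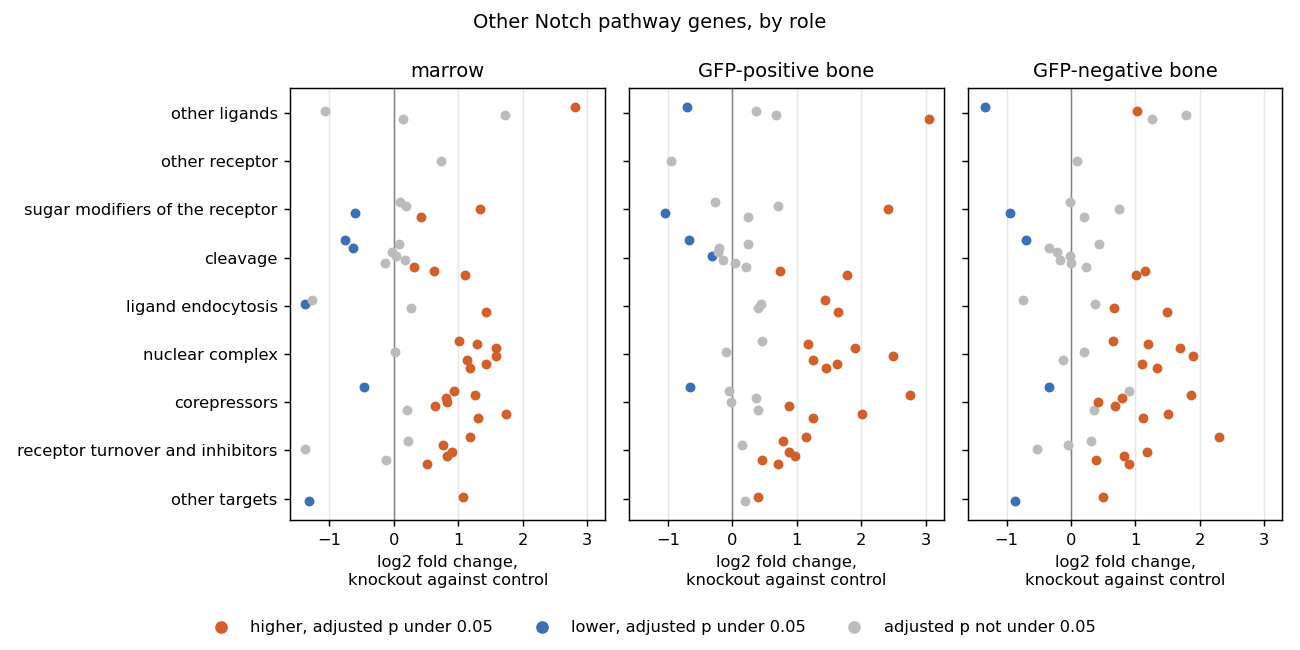
Log2 fold change of knockout against control for the other pathway genes tested, grouped by role, in the 3 subsets; each point is a gene, orange if higher and blue if lower at an adjusted p under 0.05, grey otherwise. Dtx1 in GFP-positive bone and Mfng in GFP-negative bone are not drawn, as 1 of the groups compared held 2 and 0 counts, and 7 of the 8 nuclear complex genes are orange in marrow and 6 in each bone subset.

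In the controls the other pathway genes also differed between subsets. Dlk2, a ligand-like transmembrane protein, was the marked exception to the marrow-first order, with 0.55 ± 0.18 CPM in marrow, 11.3 ± 2.86 in GFP-negative bone and 33.5 ± 3.14 CPM in GFP-positive bone. Dtx4 was at 38.5 ± 7.13 CPM in marrow and 2.17 ± 0.863 CPM in GFP-positive bone. Tle5, a short Groucho family member, was at 255 ± 6.04 CPM in marrow, 232 ± 1.77 in GFP-negative bone and 46.1 ± 8.95 CPM in GFP-positive bone. Ncstn, the nicastrin subunit of gamma-secretase, was at 317 ± 30.6 CPM in marrow and 156 ± 5.05 CPM in GFP-negative bone. Of the 51 genes 6 were higher and 24 lower in GFP-positive bone than in marrow. Of all 15516 genes 4625 were higher and 5118 (33%) lower there. GFP-negative bone had 4 higher and 11 lower than marrow, beside 3275 higher and 2823 (18.2%) lower of all genes. GFP-positive bone had 4 higher and 18 lower than GFP-negative bone, beside 18.2% and 21.8%. With the length correction these counts were 10 and 18, 3 and 10, and 8 and 13. Of all 15516 genes 5111 and 4534, 3114 and 2818, and 3784 and 2830 were then higher and lower.

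The patterns of the 9 genes over the 18 libraries are given as Pearson correlations of log2 CPM, as a description over libraries that share genotype, subset and the length trend. Notch3 and Jag1 correlated at 0.959, Notch1 and Notch2 at 0.954, and Hey2 and Nrarp at 0.932. Within groups, with the group means removed, these were 0.374, 0.434 and 0.516. Hes1 correlated with the receptors at 0.0848 to 0.288, and at 0.441 to 0.555 with the length correction. Notch2 was as weakly correlated with Hey2 (0.252), Hey1 (0.276) and Nrarp (0.272). The gene most like Notch3 was Col4a2 (0.991), followed by Col4a1 and Fbn1, genes of basement membrane collagen and of microfibrils. For both Hey2 and Nrarp it was Mcam (0.957 and 0.958), which is 1 of the 10 mural markers. For Heyl it was Amy1 (0.992), for Jag1 Sept11 (0.980), for Notch1 Itgav (0.968), for Notch2 Flii (0.980), for Hes1 Pex3 (0.928) and for Hey1 Akr1b8 (0.937).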

How the data were processed

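Gene counts of 18 libraries were analysed; the authors deposited raw, unnormalized counts of reads by gene from featureCounts, per the file headers. Per the labels' protocols, cDNA came from SMART-Seq v4 and libraries from SMARTer ThruPLEX. Build mm10 and the tools STAR, featureCounts and DESeq2 stand in the submitters' processing notes without versions. Strand and multi-mapping settings are not given in the sources used here. Groups came from titles and genotype labels. All libraries were fitted with 6 group means (12 residual degrees of freedom) in edgeR 4.0.16 under R 4.3.3, after filterByExpr (minimum count 10, total 15), with TMM scaling, a common dispersion of 0.02, robust quasi-likelihood F-tests and two-sided Benjamini-Hochberg adjustment over 15516 genes (threshold 0.05). The SE is the log2 fold change divided by the square root of F. The length correction is a lowess trend (span 0.3) of each library on log2 transcript length, used as an offset. It and scaling, filtering, DESeq2 1.42.0, subset-only, block and leave-one-out fits were alternatives. Scripts were tested on simulated data. Symbols matched 54409 of 54446 gene IDs; Tle5 is Aes in the annotation. Replicates differed beyond counting noise in every pair (chi-square per degree of freedom 13.7 to 50.7). Members and lists were chosen with earlier results of these data known. The text names all members, Pth1r, up to 4 pathway genes per knockout and 3 per control comparison by smallest p at a mean of at least 5 CPM, and the most correlated genes. One pathway gene that this rule picks is not reported here.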

Additional observations from a re-analysis of the deposited data

Results flagged for a closer look

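The knockout effect on Hes1 differed between subsets. The effect in GFP-positive bone minus that in marrow was -1.34 ± 0.25 on the log2 scale (edgeR interaction test, adjusted p = 0.00141), with all 3 knockout libraries above the controls in marrow and all 3 below them in GFP-positive bone. With the length correction the difference stayed called (-1.3, 0.00226), but the fall in GFP-positive bone alone did not (edgeR adjusted p = 0.162). The marrow rise was not called without control library 3 (edgeR adjusted p = 0.0563) or knockout library 2 (0.0547). Hes1 was 1 of the 9 genes to differ, beside 18.4% of all genes.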

How the results depend on the processing

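Across the members and Pth1r, the rises of Notch1, Notch2, Notch3 and Jag1 and the falls of Hey2 and Nrarp in marrow kept their direction and call under every alternative run. No result that was called in either fit changed direction. Some uncalled values did change sign, such as Heyl in GFP-positive bone (0.05, and -0.27 with the length correction). Scaling by library totals moved the median gene by 0.13 (marrow), -0.37 (GFP-positive bone) and -0.23 (GFP-negative bone) on the log2 scale, and raised the genes whose knockout effect differed from marrow to 5677 (GFP-positive bone) and 3740 (GFP-negative bone), with 1 member, Hes1, in the latter. DESeq2 called 4 members for GFP-positive bone against marrow and 2 members of 1420 genes between the bone subsets. Same-number libraries correlated at 0.0324 to 0.119 between control subsets, over 0.1 in 1 of 9 pairs (8 of 9 over genes of at least 5 CPM), at 0.0972 to 0.206 between knockout subsets, over 0.1 in 8 of 9, and at -0.0634 to 0.0831 between genotypes. The labels give no shared source and not every pair passed 0.1, so the samples were treated as unpaired, although the numbers tie subsets of a genotype together. With a replicate block, 3 members differed between GFP-positive bone and marrow (Hes1, Notch2 at adjusted p = 0.0427 and Hey1 at 0.0407) and 2 between the bone subsets (Hey1 at 0.0275 and Hes1 at 0.0418), Notch2 in control GFP-negative bone was called against marrow (0.0121) and GFP-positive bone (0.0259), and 2 and 2 with block and length correction together; every library correlated best with its own number between subsets (9 of 9 pairs in each genotype). Leaving out single libraries gave 1 to 2 members for GFP-positive bone against marrow (2 without knockout marrow library 3 or knockout GFP-positive library 1) and 0 to 2 between the bone subsets (2 without knockout GFP-positive library 1). Block with length correction and an edgeR fit with trended dispersions were added after seeing the data. Depth limits Nrarp and Hey2 in GFP-positive bone.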

Other observations

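Among the pathway genes not described above, the other receptor, Notch4, known from endothelium, was low in every library, from 0.0969 to 2.53 CPM, and was not called in any subset without the length correction (edgeR adjusted p 0.201, 0.268 and 0.92), but was called lower in GFP-positive bone with the length correction (-1.82, edgeR adjusted p = 0.0409). Lfng, a glycosyltransferase that modifies Notch receptors, was chosen after its values were seen. In marrow it stood at 45.9, 18.8 and 25.6 CPM in the controls and 84.0, 57.2 and 87.8 CPM in the knockouts, a log2 fold change of 1.33 ± 0.26 (edgeR adjusted p = 5.1e-04). In GFP-positive bone the controls had 4.86, 4.85 and 4.52 CPM and the knockouts 19.5, 32.6 and 24.2 CPM, a log2 fold change of 2.42 ± 0.32 (edgeR adjusted p = 8.4e-06). In GFP-negative bone the controls had 10.7, 11.1 and 6.29 CPM and the knockouts 17.7, 14.0 and 15.4 CPM, which was not called (0.74 ± 0.32, edgeR adjusted p = 0.0668) but was with the length correction (1.06, edgeR adjusted p = 0.0146). The groups did not overlap in any of the 3 subsets.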
